A study of Mus musculus with 14 samples.

Results

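Lungs of wild-type *Mcemp1*+/+ mice that went through a chronic ovalbumin (OVA) schedule were compared with lungs of wild-type mice given saline, across every gene measured. The comparison used 7 of the 14 libraries of the series, 4 from OVA-challenged and 3 from saline-treated wild-type mice. A linear model was fitted to all 4 groups of the series, so that the 7 *Mcemp1*-/- libraries also entered the estimate of the spread. Of 24270 genes in the deposited table, 22828 passed the filter on low values and were tested. All mice were of the C57BL/6 strain and 6 to 8 weeks old at the start. OVA was injected into the peritoneum on days 1, 4 and 7, and instilled through the nose once a week for 8 weeks, the first time 5 days after the last injection. Control mice had saline at both steps. OVA is a chicken egg protein that serves as a model allergen, and repeated instillation into a sensitized mouse is used as a model of allergic asthma. Mcemp1 encodes a membrane protein of mast cells and myeloid cells, and is intact in the 7 lungs compared here. *Mcemp1* was at 12, 9.92 and 9.84 in saline WT and 20.1, 11.5, 12.8 and 14.6 in OVA WT, and did not pass the test (log2 change 0.44, adjusted p = 0.12). Whole lung tissue was sequenced, taken after lavage of the airways according to the study's methods. A name such as OVA WT 2 gives a library's treatment, genotype and replicate number.

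In allergic airway inflammation, type 2 helper T cells and innate lymphoid cells release IL-4, IL-5 and IL-13. These cytokines turn macrophages towards alternative activation, recruit eosinophils through eotaxins, and convert airway secretory cells from club cells, which make secretoglobins and detoxifying enzymes, into mucus-producing goblet cells. Interferon gamma from Th1 and cytotoxic cells acts in parallel and induces guanylate-binding proteins, antigen presentation genes and CXCR3 chemokines. Lung tissue also carries neighbouring structures, among them cardiac muscle in the sleeves of the pulmonary veins and fat around the large airways.

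The wild-type libraries held an estimated 51.6M to 63.8M reads each after saline and 47.3M to 49.4M after OVA. Values are normalized counts in the deposited unit, in which column totals came to 935196 ± 21566 (SD, n = 3) in saline WT and 1094790 ± 51457 (n = 4) in OVA WT. Transcripts of the mitochondrial genome took 13.5% to 17% of the column total after saline and 22% to 25.8% after OVA. They carried most of the difference in totals, because the totals outside the mitochondrial genome were 796346 ± 6936 and 834237 ± 24741. The tissue label held for the markers of lung: *Sftpc*, the surfactant protein of type 2 alveolar cells, was at 9068 to 11256 in saline WT, *Ager* of type 1 cells at 624 to 769 and *Pecam1* of endothelium at 442 to 606. Mast cell transcripts, which the extraction text of the labels would lead one to look for, were low, with *Cpa3* at 0.285 to 0.975 in saline WT. In a principal component analysis of the 7 libraries the first component, with 48.8% of the variance, ran from -40.9 to -35 over the saline and from 20.4 to 39.4 over the OVA libraries. OVA WT 2 stood apart on the second component (25% of the variance), at -55.4, against -3.3 to 24.2 in the other 6. Many counts and medians that this library moved by more than 1.5 times are given without it as well, but not all.

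After OVA 995 genes were higher (4.36% of those tested) and 1701 were lower (7.45%), at a Benjamini-Hochberg adjusted p under 0.05 by limma. The median change over all genes was 0.006 on the log2 scale. Among the called genes the median was 0.66 for those that rose and -0.75 for those that fell. A change of at least 2-fold was seen in 221 of the rising genes (0.968% of those tested) and 528 of the falling genes (2.31%), and 42 and 92 genes changed at least 4-fold. Without OVA WT 2 the called genes of at least 2-fold were 189 higher and 830 lower. Values of the 2 groups did not overlap for 2356 higher genes (10.3%) and 2874 lower genes (12.6%), which include 978 and 1650 of the called genes. The called falling genes together held 8.21% to 9.04% of the column total in saline WT and 2.86% to 3.75% in OVA WT. The rising genes outside the mitochondrial genome held 6.68% to 7.32% and 10.4% to 11.1%. When columns were set to equal totals, which moves the median of all genes to -0.17, the split was 467 higher and 4340 lower. The counts rested on few lungs. They were 601 and 1091 without saline WT 1, 380 and 779 without saline WT 2, 561 and 939 without saline WT 3, 598 and 1055 without OVA WT 1, and 1000 and 2035 without OVA WT 2. The labels number the replicates but do not say whether each is a separate mouse, so a p-value sets a difference against variation among these libraries, part of which may be technical.

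**Figure D1:**
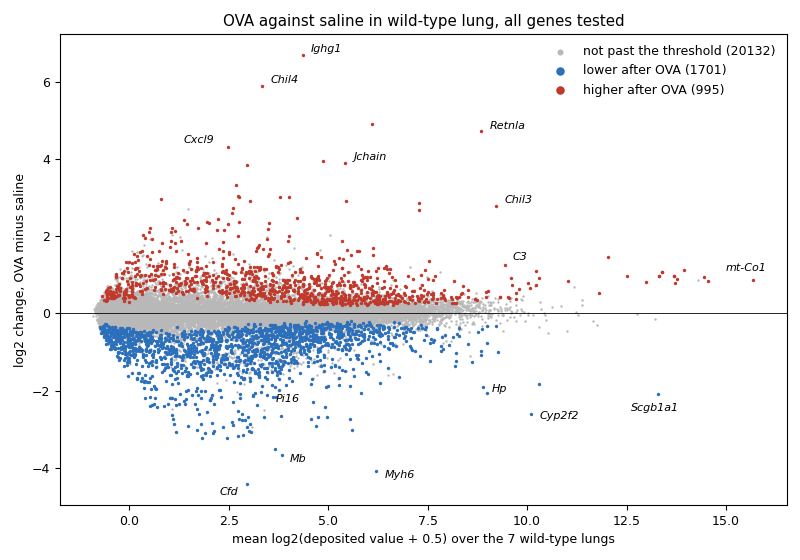
Change of each of the 22828 genes tested (log2, OVA minus saline, y axis) against its mean log2(value + 0.5) over the 7 wild-type lungs (x axis). Red points are the 995 genes called higher, blue points the 1701 called lower and grey points the rest, and the largest falls and rises are seen at low to middle levels, with Scgb1a1, Cyp2f2 and the mitochondrial transcripts at the high end.

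The 66 gene lists covered 868 measured genes, of which 175 rose and 102 fell. Immune lists took most of the rises, with 133 of 330 genes higher and 4 lower (median log2 change 0.67). Epithelial lists went the other way, with 2 of 101 higher and 33 lower (median -0.58), and lists of other tissues, such as heart muscle and fat, had 0 of 82 higher and 31 lower. Endothelial and mesenchymal lists had fewer calls: 1 of 39 and 1 of 40 genes were higher, and 4 and 5 were lower (10.3% and 12.5%). Matrix genes had 2 of 30 higher (6.67%) and 0 lower. Signalling lists had 3 of 70 higher and 10 lower, and cell state lists 33 of 176 higher and 15 lower. Over all genes tested 4.36% were higher and 7.45% lower. The endothelial, mesenchymal and matrix counts were not far from these shares. In whole tissue, fewer cells of a type and less RNA per cell cannot be told apart, and this holds for every list. Except where a library is named, each gene said to have risen or fallen kept its call when any 1 of the 14 libraries was left out.

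**Figure D2:**
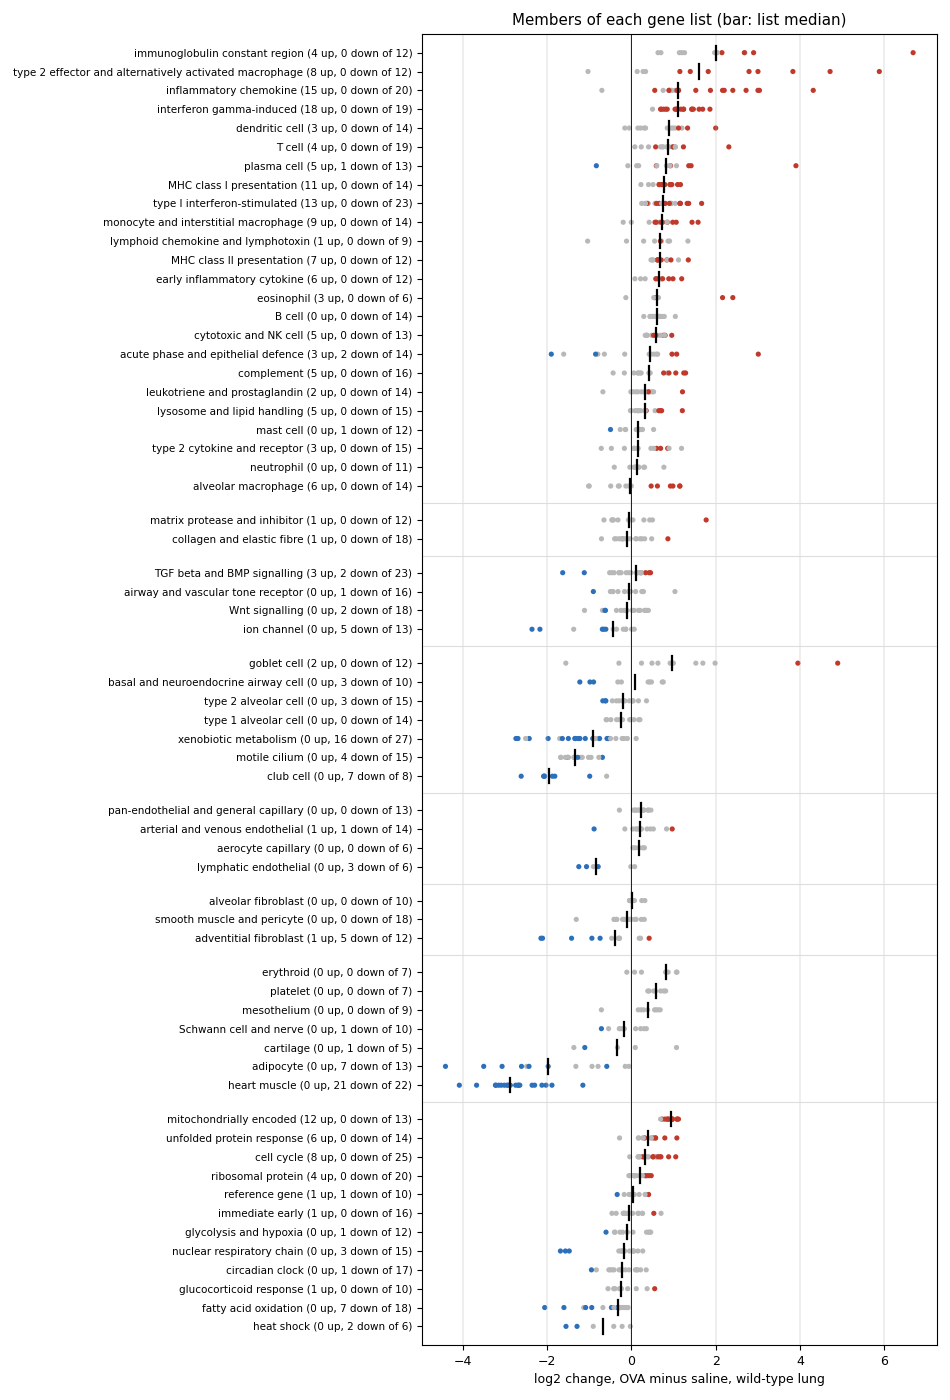
Log2 change of every measured member (points, x axis) of the gene lists with at least 5 measured genes (rows), with the list median as a black bar. Red and blue points are genes called higher and lower, grey points the rest, and the panels from top to bottom are the immune, matrix, signalling, epithelial, endothelial, mesenchymal, other tissue and cell state lists.

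Genes of the list of type 2 effectors and alternatively activated macrophages were among the largest rises. Of 12 measured 8 rose, with a list median of 1.61. Which cells of the tissue made these transcripts was not tested. *Retnla*, a secreted resistin-like protein, was at 61, 49.2 and 116 in saline WT 1 to 3 and at 1602, 1670.5, 2671 and 1673 in OVA WT 1 to 4. All OVA lungs lay far above the highest saline lung (log2 change 4.71, SE 0.47, adjusted p = 0.00026). *Chil4*, a chitinase-like protein, went from 0.306, 0.174 and 1.27 to 38.1, 88.7, 31.9 and 102 (log2 change 5.88, adjusted p = 0.0025). *Arg1*, which breaks down arginine, went from 1.45, 1.14 and 1.02 to 10.6, 47.6, 37.6 and 16.1, with OVA WT 1 and 4 lowest and OVA WT 2 and 3 highest (log2 change 3.83, adjusted p = 0.00071). Surface proteins of the list moved by less: the inhibitory Fc receptor *Fcgr2b* by 1.4, the mannose receptor *Mrc1* by 1.15 and the PD-1 ligand *Pdcd1lg2* by 1.82 on the log2 scale. The haemoglobin scavenger receptor *Cd163* went against the list in sign, at 8.97, 11 and 6.93 in saline WT and 2.67, 5.34, 5.4 and 3.48 in OVA WT, but did not pass the threshold (log2 change -1.03, adjusted p = 0.067). Secreted products outside the list were raised too: *Chia1*, an acidic chitinase, at 39.2 to 74.8 in saline WT and 278 to 614 in OVA WT (log2 change 2.85, adjusted p = 0.001), and the eosinophil-associated ribonuclease *Rnase2a*, which was at 0.015 to 0.0443 and 2.14 to 8.44 (log2 change 2.97, adjusted p = 0.00066).

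Recruited and tissue macrophage markers rose with smaller folds. In the list of monocytes and interstitial macrophages 9 of 14 genes were higher (median 0.73). The lipid-sensing receptor *Trem2* went from 2.78, 2.28 and 2.17 to 7.62, 7.33, 8.54 and 6.15 (log2 change 1.44, SE 0.16, adjusted p = 0.00032), and *Ms4a7* from 2.9, 2.03 and 2.82 to 9.24, 8.34, 9.11 and 7.97 (log2 change 1.58, adjusted p = 8.1e-05). Both had OVA lungs within a narrow range and far above saline. The related *Ms4a6d* rose by 2.18, the lysosomal protein *Cd68* by 1.07, the complement subunit *C1qb* by 0.98 and *Ccr2*, the receptor that brings monocytes out of blood, by 0.74. Alveolar macrophage genes split: 6 of 14 rose, but the list median was -0.03 (0.11 without OVA WT 2). The integrin *Itgax* rose by 1.15, the coagulation factor *F7* by 1.15 and the proton pump subunit *Atp6v0d2* by 0.93, whereas the lectin *Siglecf* was at 5.83 to 7.48 and 3.46 to 9.41 and the scavenger receptor *Marco* at 7.06 to 11.5 and 3.94 to 9.68, without passing. Among 15 lysosome and lipid handling genes 5 rose, but only 1 without saline WT 2, 2 without saline WT 1 and 3 without OVA WT 1, OVA WT 3, saline WT 3 or any of the saline KO libraries. *Spp1* (osteopontin) was one of those that held, at 84, 107 and 82.8 and 125, 137, 197 and 147 (log2 change 0.72, adjusted p = 0.006).

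The promoter of *Retnla* is shown because it holds the spaced palindrome that the IL-4 and IL-13 effector STAT6 prefers (TTC, any 4 bases, then GAA), in capitals, 145 bases before the annotated start. Sequences are from RefSeq (GRCm38.p6), span 250 bases before to 50 bases after the start and are written 5′ to 3′ on the strand of the gene.
Retnla (chr16:48842359-48842658, plus strand): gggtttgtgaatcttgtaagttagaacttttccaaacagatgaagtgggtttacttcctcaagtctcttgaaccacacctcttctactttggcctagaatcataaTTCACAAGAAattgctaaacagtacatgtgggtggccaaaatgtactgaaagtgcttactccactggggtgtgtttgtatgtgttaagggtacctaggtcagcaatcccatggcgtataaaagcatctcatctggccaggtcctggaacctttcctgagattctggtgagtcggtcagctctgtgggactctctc
The STAT6 palindrome, read alike on both strands, was found in 2 of 9 promoters of the alternatively activated macrophage list, the other being *Pdcd1lg2*. Over all 13845 tested genes with a promoter in the table it was found in 5.63%, over the 667 rising genes in 9% and over the 1247 falling genes in 4.17%. The palindrome of other STAT proteins, with a spacer of 3 bases in place of 4, was in 7.17%, 9% and 6.74%, and in the promoters of *Chil3* and *Chil4*. No promoter had matches to both palindromes that share bases.

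Genes induced by interferon gamma rose almost without exception. In the list 18 of 19 were higher, with a median of 1.10, and the exception was *Irf8*. *Ifng* itself was near the limit of detection, at 0.272, 0.253 and 0.24 in saline WT and 0.917, 0.689, 0.797 and 0.932 in OVA WT (log2 change 0.82, SE 0.12, adjusted p = 0.0011). The immunity-related GTPase *Iigp1* went from 44.5, 30.1 and 32.9 to 172, 83.8, 82.8 and 148 (log2 change 1.69, SE 0.28, adjusted p = 0.002), with OVA WT 1 and 4 above OVA WT 2 and 3. *Gbp6*, a guanylate-binding protein, rose by 1.61, *Tgtp1* by 1.86 and the PD-1 ligand *Cd274* by 1.47. Counted by symbol, 9 of the 11 tested Gbp genes were higher and 0 lower, a count made after the values were seen. Over all genes tested 4.36% were higher. Genes of the type I interferon response were called less evenly, with 13 of 23 higher (median 0.76), 6 without saline WT 2 and 8 without saline WT 3. The RNA-binding *Ifit1* was at 22.1, 17.9 and 20.7 and 70.6, 48.7, 37.5 and 58.9 (log2 change 1.36, adjusted p = 0.0034), and the nucleic acid sensor *Zbp1* at 6.16, 5.14 and 5.17 and 23.9, 24.8, 11.2 and 17.4 (log2 change 1.67, adjusted p = 0.0017). In both, OVA WT 3 was the lowest of the OVA lungs and the groups did not overlap.

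Antigen presentation followed. MHC class I presentation had 11 of 14 genes higher (median 0.76). *H2-K1*, a class I heavy chain, was at 795, 706 and 788 in saline WT and 1422, 1499, 1225 and 1176 in OVA WT (log2 change 0.80, SE 0.15, adjusted p = 0.0045), and its partner *B2m* at 653, 540.3 and 438 and 1211, 1019, 1003 and 848 (log2 change 0.92, adjusted p = 0.0053). The class I activator *Nlrc5* rose by 1.17, the peptide transporter *Tap1* by 1.10 and the immunoproteasome subunit *Psmb8* by 0.94. Among class II genes 7 of 12 were higher (median 0.67), and 3 without saline WT 2. *H2-Ab1* went from 256, 254 and 244 to 447, 493, 384 and 337 (log2 change 0.71, adjusted p = 0.008), and *Ctss*, the protease that trims the invariant chain, from 119.9, 108 and 96.9 to 306, 279.5, 289 and 234 (log2 change 1.35, SE 0.16, adjusted p = 0.00037). Of 14 dendritic cell genes 3 rose, and 4 without OVA WT 2. The list summed to 130 to 154 after saline, to 536 in OVA WT 2 and to 178 to 211 in the other OVA lungs, and its median, 0.90, was 0.38 without OVA WT 2. Those that rose included *Batf3*, a factor of cross-presenting cells (log2 change 1.33, adjusted p = 0.0046), and the chemokine *Ccl17* (log2 change 1.12, adjusted p = 0.0087).

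The promoters of *Gbp2* and *Ifit1*, of the interferon lists, and of *Cxcl10*, an inflammatory chemokine, are shown because these genes rose. Each holds the interferon-stimulated response element core (GAAA, any 2 bases, then GAAA, or its reverse complement), in capitals.
Cxcl10 (chr5:92348840-92349139, minus strand): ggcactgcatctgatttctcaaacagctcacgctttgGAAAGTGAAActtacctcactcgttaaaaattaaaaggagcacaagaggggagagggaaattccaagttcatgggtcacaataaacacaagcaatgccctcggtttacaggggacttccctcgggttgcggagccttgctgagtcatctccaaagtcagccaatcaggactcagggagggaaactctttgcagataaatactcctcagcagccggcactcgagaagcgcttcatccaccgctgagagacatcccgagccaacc
Gbp2 (chr3:142620413-142620712, plus strand): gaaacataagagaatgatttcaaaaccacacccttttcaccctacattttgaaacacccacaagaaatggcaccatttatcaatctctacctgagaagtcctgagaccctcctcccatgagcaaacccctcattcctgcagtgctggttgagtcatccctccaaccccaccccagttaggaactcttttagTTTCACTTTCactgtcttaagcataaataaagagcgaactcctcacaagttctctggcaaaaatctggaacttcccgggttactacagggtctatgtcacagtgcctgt
Ifit1 (chr19:34640639-34640938, plus strand): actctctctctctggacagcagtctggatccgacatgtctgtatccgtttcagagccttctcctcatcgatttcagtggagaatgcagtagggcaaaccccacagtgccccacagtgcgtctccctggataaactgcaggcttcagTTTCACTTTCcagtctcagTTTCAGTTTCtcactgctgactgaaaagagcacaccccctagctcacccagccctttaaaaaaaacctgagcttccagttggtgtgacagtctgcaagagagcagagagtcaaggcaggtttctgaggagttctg
The matches begin 213 bases before the start in *Cxcl10*, 59 in *Gbp2*, and 104 and 85 in *Ifit1*. On either strand the core was present in 3.11% of the 13845 promoters, in 11.5% of those of rising genes (77 of 667) and in 1.92% of those of falling genes (24 of 1247). By list, 10 of 14 promoters of interferon gamma-induced genes and 9 of 16 of type I interferon genes held it, against 3 of 12 in MHC class I presentation and 0 of 20 in heart muscle. Among inflammatory chemokines it was in 1 of 12, that of *Cxcl10*. In 12 promoters a match shared bases with a match to the STAT palindrome of spacer 3, and in 7 with one of spacer 4.

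Chemokine ligands rose broadly: 15 of 20 inflammatory chemokines were higher and 0 lower (median 1.12), and *Ccl3*, *Ccl5*, *Ccl20*, *Ccl22* and *Cxcl5* did not pass. *Cxcl9*, a ligand of CXCR3 on Th1 and cytotoxic cells, was at 1.02, 0.235 and 0.42 in saline WT and 21.2, 19.5, 15.3 and 23.3 in OVA WT (log2 change 4.32, SE 0.43, adjusted p = 0.00026). *Ccl8* was nearly equal in the 3 saline lungs, at 1.54, 1.56 and 1.54 and 12.7, 16.1, 22 and 14.2 (log2 change 3.00, SE 0.20, adjusted p = 2.5e-05). The monocyte chemokines *Ccl2* and *Ccl7* rose by 2.2 and 2.72, and *Ccl9* by 1.88. Of the eotaxins, which draw eosinophils through CCR3, *Ccl11* went from 1.77, 1.76 and 1.59 to 4.55, 11.8, 17.4 and 8.07 (log2 change 2.16, adjusted p = 0.0081) and *Ccl24* from 0.576, 0.561 and 0.39 to 4.64, 10.1, 4.06 and 2.77 (log2 change 2.41, adjusted p = 0.0017). *Ccl11* was lowest in OVA WT 1 and highest in OVA WT 3, and *Ccl24* was highest in OVA WT 2. *Ccr3* itself rose from 0.133, 0.0543 and 0.135 to 0.441, 0.38, 0.365 and 0.378 (log2 change 0.56, adjusted p = 0.0032), whereas the granule protein *Prg2* was at 0.0886 to 0.225 and 0.279 to 0.655 and did not pass (log2 change 0.64, adjusted p = 0.07). Eosinophil genes numbered only 6 after the filter, of which 3 rose, 2 of them eotaxins.

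Type 2 cytokines themselves were close to the floor. *Il13* rose from 0.0148, 0.0181 and 0.060 to 0.255, 0.422, 0.319 and 0.237 (log2 change 0.60, adjusted p = 0.0026) and its decoy receptor *Il13ra2* from 0.0591, 0.0543 and 0.015 to 0.279, 0.655, 0.319 and 0.308 (log2 change 0.70, adjusted p = 0.0071), and at such low values both changes are understated on the log2(value + 0.5) scale. *Il4* (0.585 to 0.739 and 0.449 to 1.04) and *Il5* (0.285 to 0.31 and 0.271 to 0.486) did not pass. The epithelial alarmin *Il33* rose from 61.5, 72.6 and 84.7 to 110.2, 113, 172 and 141 (log2 change 0.86, adjusted p = 0.0067). In all, 3 of 15 genes of this list rose, and 5 without OVA KO 1. Among mast cell genes 0 of 12 were called higher. The 1 called lower was the connective tissue mast cell protease *Mcpt4* (0.65, 0.435 and 0.615 and 0.372, 0.253, 0.296 and 0.118). That call was lost without saline WT 1, 2 or 3, OVA WT 2, 3 or 4, or any saline KO library. The growth factor receptor *Kit* was at 137 to 174 in saline WT and 158 to 245 in OVA WT (log2 change 0.26, adjusted p = 0.44), and *Cpa3* at 0.285 to 0.975 and 0.497 to 1.25. *Mcpt4* and *Cpa3* lay near the floor, where the log2(value + 0.5) scale understates changes. Which cells expressed *Kit*, and whether mast cells changed in number, was not tested. Neutrophil genes had 0 of 11 called by limma in either direction (1 was higher at an unadjusted p under 0.05), with *S100a8* at 48.9, 25.9 and 16 and 54.3, 33.8, 59.5 and 11.5.

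B and T cell genes separated OVA WT 2 from the other OVA lungs. Summed over the B cell list, values were 211 to 215 in saline WT, 283, 196 and 201 in OVA WT 1, 3 and 4, and 1035 in OVA WT 2. The T cell list likewise summed to 434 in OVA WT 2, against 128 to 138 in the other OVA lungs and 92.8 to 108 after saline. The homing chemokine *Cxcl13* was at 0.813, 44.8, 1.18 and 1.16 in OVA WT 1 to 4 and 1.41 to 2.64 in saline WT, so that only OVA WT 2 rose above the controls. B cell genes had 0 of 14 called by limma, and 1 was higher at an unadjusted p under 0.05. T cell genes had 4 of 19 higher, 8 without OVA WT 2, 2 without saline WT 1 and 2 without saline WT 3. The inhibitory receptor *Ctla4* did not depend on that lung: it was at 2.07, 1.74 and 1.42 in saline WT and 6.34, 25.1, 8.0 and 9.6 in OVA WT (log2 change 2.31, SE 0.36, adjusted p = 0.0015). Cytotoxic and NK cell genes had 5 of 13 higher, but 1 without OVA WT 1 or saline WT 1 and 0 without saline WT 3. OVA WT 2 did not stand apart here, with a sum of 119 against 156, 108 and 88.7 in OVA WT 1, 3 and 4. *Tnfrsf9* (4-1BB), a costimulatory receptor of activated lymphocytes outside the lists, was at 1.26, 1.87 and 1.8 and 9.71, 14.9, 18.9 and 8.73 (log2 change 2.61, SE 0.32, adjusted p = 0.00039).

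**Figure D3:**
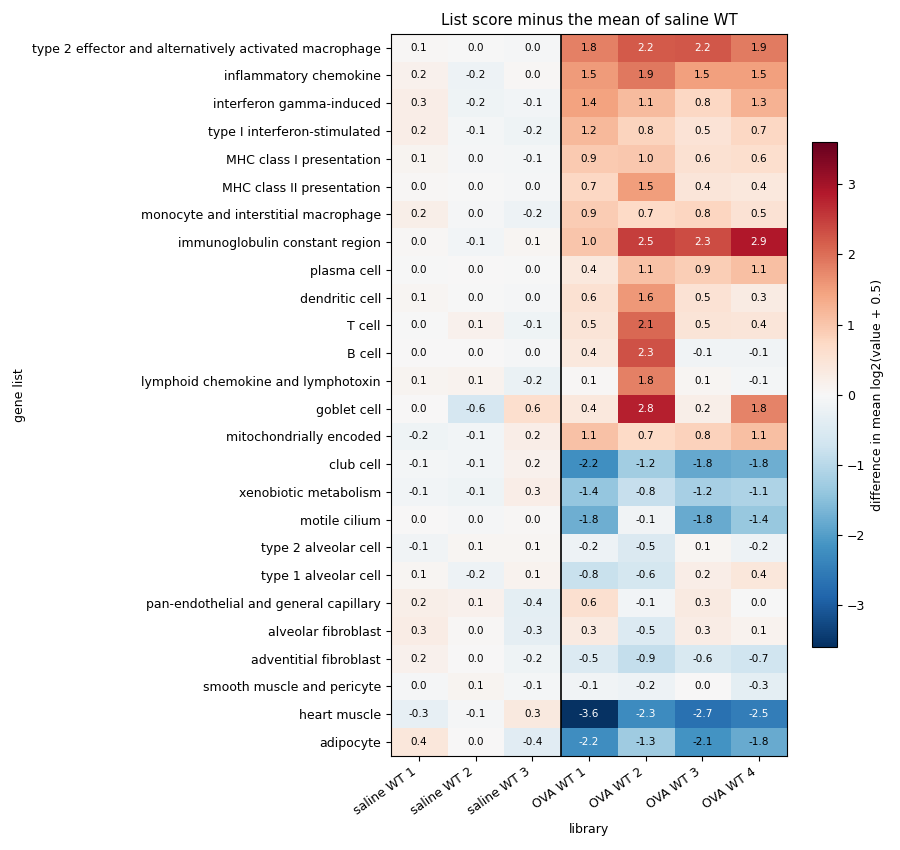
Mean log2(value + 0.5) over the members of each list (rows) in each wild-type library (columns), minus the mean of the 3 saline WT libraries. The rows of alternatively activated macrophages, monocytes and interstitial macrophages, inflammatory chemokines and interferon-induced genes are raised in all 4 OVA lungs, whereas the T cell, B cell and lymphoid chemokine rows are raised mainly in OVA WT 2, in which the motile cilium row stays near the saline level.

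Antibody transcripts were above the controls in every OVA lung. Summed over the immunoglobulin constant regions, values were 203 to 207 in saline WT and 391.8, 1293, 1120 and 2015 in OVA WT 1 to 4. *Ighg1*, the heavy chain of IgG1, went from 1.24, 1.25 and 0.51 to 23.5, 152, 163 and 833 (log2 change 6.68, SE 1.27, adjusted p = 0.0058), with a wide spread between OVA WT 1, the lowest, and OVA WT 4, the highest. *Igha* (IgA) was at 10.6, 10.7 and 21.1 and 65.4, 50.5, 256 and 134 (log2 change 2.90, adjusted p = 0.0011), and the light chain *Igkc* at 56, 53.2 and 51 and 128, 384, 433 and 666 (log2 change 2.68, adjusted p = 0.0015). *Ighm* was at 88.6, 84.6 and 74 and 96.8, 422, 152 and 205 and *Ighe* at 0.0148, 0.0181 and 0.030 and 0.0464, 1.14, 0.0911 and 0.473, and neither passed. Of 12 constant region genes 4 rose, and 8 without OVA WT 1. *Jchain*, which links IgA and IgM chains, followed at 7.58, 6.27 and 13.5 and 47.4, 91.3, 241 and 330.3 (log2 change 3.90, adjusted p = 0.00063). Plasma cell genes had 5 of 13 higher, but 1 without saline WT 3, 2 without saline WT 1, OVA WT 3 or OVA WT 4, and 3 without saline WT 2. The exception in sign was *Sdc1*, a plasma cell marker that epithelium also expresses, which fell from 174, 179.6 and 199 to 88.9, 96.3, 122 and 109 (log2 change -0.83, SE 0.11, adjusted p = 0.00046). Immunoglobulin and T cell receptor segments made up 25 of the 995 rising genes and 0 of the falling genes.

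Innate effectors formed a further group. Complement had 5 of 16 genes higher (median 0.42). *C3*, its central component, was at 449, 474 and 355 and 1026, 824, 1230.0 and 969 (log2 change 1.24, SE 0.20, adjusted p = 0.0014), and its receptor *C3ar1* at 4.67, 4.33 and 4.72 and 10.2, 11.5, 10.9 and 7.92 (log2 change 1.05, adjusted p = 0.00039). The integrin *Itgam* of complement receptor 3 rose by 0.89. The acute phase genes were split. *Saa3* went from 3.63, 2.35 and 5.65 to 47.9, 34.3, 34.5 and 21.2 (log2 change 3.01, SE 0.37, adjusted p = 0.00041) and the iron-binding *Lcn2* from 73.5, 91.8 and 97.7 to 160.3, 152, 213 and 162 (log2 change 0.96, adjusted p = 0.003), whereas haptoglobin (*Hp*) fell from 914, 1150.3 and 973 to 270.2, 222, 369 and 239.9 (log2 change -1.90, SE 0.25, adjusted p = 0.00055), and 3 of 14 genes of the list rose while 2 fell. Early inflammatory cytokines had 6 of 12 higher, and 3 without saline WT 2. Here the antagonist *Il1rn* (3.49 to 7.25 and 8.8 to 15.7, log2 change 1.19, adjusted p = 0.0047) and *Il1a* (1.89 to 2.73 and 3.85 to 6.25, log2 change 0.99, adjusted p = 0.0038) rose, while *Il1b* (5.4 to 12.4 and 8.63 to 24.5), *Tnf* and *Il6* did not pass. Thromboxane synthase (*Tbxas1*) rose from 8.24, 8.0 and 6.34 to 20, 16.7, 20.3 and 15.5 (log2 change 1.21, adjusted p = 0.00037), and 2 of 14 leukotriene and prostaglandin genes were higher, of which *Tbxas1* alone remained without saline WT 2 or 3, OVA WT 1 or 3, OVA KO 2 or 3 or any saline KO library. By symbol, 7 of 11 Serpina genes rose, all of the Serpina3 cluster of protease inhibitors, and 4 without saline WT 3. Of all genes tested 4.36% rose. *Serpina3g* was at 7.1, 7.3 and 5.19 and 31, 49.5, 40 and 34.9 (log2 change 2.48, SE 0.32, adjusted p = 0.00053). These paralogs are near-identical copies on 1 chromosome, and the split of reads between them is uncertain.

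Genes of airway secretory cells fell. Of 8 measured club cell genes 7 were lower, with a median of -1.96, and *Scgb3a1* did not pass. *Scgb1a1*, the main secretoglobin of the small airways, was at 20265, 24511 and 24499 in saline WT and 4346, 5546, 7511 and 4822 in OVA WT (log2 change -2.08, SE 0.27, adjusted p = 0.00055). *Cyp2f2*, the cytochrome P450 that marks club cells, went from 2712, 3246 and 3349 to 404, 719, 579 and 386 (log2 change -2.61, SE 0.30, adjusted p = 0.00037), and the chloride channel subunit *Gabrp* from 119.7, 128 and 134 to 23.5, 49.1, 27.8 and 25.7 (log2 change -2.06, adjusted p = 0.00063). All 4 OVA lungs, OVA WT 2 included, lay below the controls in these genes. Detoxifying enzymes, many of them made by these cells, had 16 of 27 lower and 0 higher (median -0.92). The paraoxonase *Pon1* fell from 62.5, 68.3 and 78.2 to 8.24, 14.7, 12 and 6.74 (log2 change -2.74, SE 0.30, adjusted p = 0.00032) and the carboxylesterase *Ces1d* from 595, 603 and 751 to 283, 211, 319 and 274 (log2 change -1.26, adjusted p = 0.00052). The inducible *Cyp1a1* was at 7.58, 17 and 199.9 in saline WT, a spread that left it undecided. Counted by symbol after the values were seen, gene families of such enzymes, which hold some members of the list, were uneven: 11 of 19 Aldh genes were lower (7 without saline WT 2) and 1, *Aldh1a3*, higher (called neither without saline WT 1, 2 or 3 nor without OVA WT 3), 5 of 8 Gstm genes were lower and 12 of 44 Cyp genes lower (7 without saline WT 2), against 1 of 12 Akr genes and 0 of 8 Sult genes. Over all genes tested 7.45% were lower and 4.36% higher, and the Akr count (8.33% lower) was near that share. Neighbouring glutathione transferase and esterase genes resemble each other in sequence, and their shares of reads are uncertain.

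Goblet cell genes did not move as a block. *Slc26a4*, an anion exchanger induced by IL-13, rose in every OVA lung, from 4.31, 5.98 and 7.0 to 74.3, 121, 131 and 68.5 (log2 change 3.95, SE 0.47, adjusted p = 0.00038). *Clca1*, a secreted protein of mucous cells, was at 9.07, 1.25 and 57.1 in saline WT and 130.5, 832, 106 and 643 in OVA WT (log2 change 4.90, adjusted p = 0.019). Its saline values spread widely, and the call did not hold without saline WT 1 or 2 or without OVA WT 2. The gel-forming mucin *Muc5ac* was at 3.81, 3.6 and 6.37 and 3.14, 30, 3.19 and 18.4, so that OVA WT 2 and 4 lay above and OVA WT 1 and 3 below or within the controls. *Agr2* showed the same split, at 3.87, 1.01 and 4.99 and 3.39, 37.4, 2.69 and 17.3. *Muc5b* was at 155, 160.4 and 243 and 20.4, 311, 16.4 and 136, above the controls in OVA WT 2 and below them in the other OVA lungs. None of these 3 passed. With 2 of 12 genes higher, the list had 1 without OVA WT 2, saline WT 1 or saline WT 2 and 4 without OVA KO 3.

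Ciliated cell genes were lower in 3 of the 4 OVA lungs. *Foxj1*, the regulator of motile cilia, was at 109, 110.4 and 116 in saline WT and 26.9, 93.9, 26.4 and 34.5 in OVA WT (log2 change -1.51, adjusted p = 0.04), a call lost without any saline library, OVA WT 1, 3 or 4, or OVA KO 2. The axonemal dynein *Dnah5* was at 61.8, 58.5 and 62.3 and 16.8, 71.6, 14.9 and 25.9. In both, OVA WT 2 lay near or above the saline lungs and the other OVA lungs were far below them. The list had 4 of 15 genes lower (median -1.35) with all libraries and 15 of 15 without OVA WT 2. It had 13 without OVA KO 3, 9 without OVA KO 1, and 1 without any of the other wild-type libraries. By symbol, 11 of 34 Cfap genes and 5 of 16 Dnah genes fell (7.45% of all genes tested did), and 28 and 12 without OVA WT 2. Without any other wild-type library the counts were 1 to 5 and 1 or 2. Of the knockout libraries, OVA KO 3 gave 24 and 8, OVA KO 1 gave 19 Cfap genes, and OVA KO 2 or any saline KO library gave 7 and 3. *Tppp3*, which is not confined to cilia, fell in all, from 265, 253 and 282 to 144, 181, 159.8 and 181 (log2 change -0.69, adjusted p = 0.0089). The neuroendocrine granule protein *Resp18* fell from a low level, 1.14, 1.07 and 1.09 to 0.139, 0.169, 0.0456 and 0.449 (log2 change -1.22, adjusted p = 0.00087). Basal cell keratin *Krt5* was at 0.0929, 7.56, 0.0911 and 0.684 in OVA WT, raised only in OVA WT 2.

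Alveolar genes gave few calls, but the OVA lungs differed from each other in type 1 genes. The type 1 list summed to 3693 to 4393 in saline WT. It summed to 2804 and 2716 in OVA WT 1 and 2, and to 5018 and 5411 in OVA WT 3 and 4. By limma 0 of 14 type 1 alveolar genes passed (median -0.24, and -0.09 without OVA WT 2), 2 without OVA WT 4, and 2 were lower at an unadjusted p under 0.05, with *Ager* at 769, 624 and 722 and 391, 433, 836 and 878. In OVA WT 1 and 2 it was below and in OVA WT 3 and 4 above the controls. Of 15 type 2 alveolar genes 3 were lower, and 1 without saline WT 2. *Sftpc* was at 9068, 10173 and 11256 and 9098, 6619, 11925 and 9646 and did not pass (log2 change -0.15, adjusted p = 0.68), and the transcription factor *Cebpa* fell from 78.8, 94.3 and 92.1 to 57.8, 52.1, 62.9 and 59 (log2 change -0.60, adjusted p = 0.0018). Outside the lists, *Cldn3*, a claudin of airway and type 2 cells, was at 98.8, 110.0 and 113 and 43.4, 55.2, 48 and 51.1 (log2 change -1.11, SE 0.12, adjusted p = 0.00026), and the membrane protease *Hpn* (hepsin) at 10.7, 10.6 and 12 and 5.3, 5.83, 5.72 and 5.61 (log2 change -0.92, adjusted p = 0.00025). By symbol 6 of 15 Cldn genes were lower and 0 higher, where 7.45% and 4.36% of all genes tested were.

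Vascular and stromal lists were near 0 with named exceptions. General capillary genes had 0 of 13 and aerocyte genes 0 of 6 called, with medians of 0.23 and 0.18 (0.005 and -0.04 at equal column totals, 0.31 and 0.39 without OVA WT 2), and 0 genes of either list had an unadjusted limma p under 0.05. Lymphatic endothelium had 3 of 6 lower (median -0.84), among them *Prox1*, its master regulator, at 5.1, 5.14 and 4.75 and 1.58, 1.73, 2.53 and 2.91 (log2 change -1.06, adjusted p = 0.004), while *Lyve1* was at 191 to 249 and 165 to 319. Of 14 arterial and venous genes 12 had a positive change (median 0.21, and -0.01 at equal column totals), but 1 was called higher and 1 lower. The rise was 0 without saline WT 2 or 3, OVA WT 4, OVA KO 2 or any saline KO library and 2 without OVA KO 1. The fall was of the arterial kinase *Bmx*, from 15.2, 13.9 and 13.6 to 10.1, 8.32, 6.49 and 5.75 (log2 change -0.88, adjusted p = 0.0047). Alveolar fibroblast genes had 0 of 10 called by limma, and 0 at an unadjusted p under 0.05. Smooth muscle and pericyte genes had 0 of 18 called, 2 lower at an unadjusted p under 0.05, 2 without OVA KO 1 or 3 and 1 without OVA WT 1 or 2, with *Acta2* at 67.4, 68.7 and 67 and 43.6, 68.5, 90.1 and 45.7. Adventitial fibroblasts, which sit in the cuff around airways and vessels, had 5 of 12 lower and 1, Ly6a, higher, a call lost without any wild-type library but OVA WT 2, without saline KO 3 or without OVA KO 2, 3 or 4. *Pi16* was at 29.2, 23.5 and 22.7 and 5.77, 6.69, 5.54 and 4.01 (log2 change -2.11, SE 0.18, adjusted p = 8.1e-05), *Serpinf1* at 21.1, 19.9 and 18.4 and 3.07, 4.22, 5.42 and 3.95 (log2 change -2.14, SE 0.23, adjusted p = 0.00026) and the collagen-binding *Dcn* at 168, 151 and 161 and 61.8, 64.8, 47.9 and 65.5 (log2 change -1.42, adjusted p = 0.00054). In each of these 3 genes all OVA lungs lay below all saline lungs.

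Matrix and growth factor genes gave few calls. Among 18 collagen and elastic fibre genes 0 fell and 1 rose, and fibrillar collagen was close in the 2 groups, with *Col1a1* at 244, 220.4 and 158 and 211, 142, 195 and 169 (log2 change -0.20, adjusted p = 0.6) and *Col3a1* at 226 to 402 and 240.4 to 391. Fibronectin (*Fn1*) was the one that rose, from 203, 148 and 94.3 to 273, 239, 303 and 228 (log2 change 0.87, adjusted p = 0.042), a call lost without saline WT 2 or 3, saline KO 3, or any OVA WT library. *Timp1*, an inhibitor of matrix proteases, rose from 4.59, 3.8 and 4.47 to 14.9, 19.6, 15.4 and 14 (log2 change 1.77, SE 0.22, adjusted p = 0.00045), and the macrophage elastase *Mmp12* from 4.45, 3.97 and 4.86 to 45.5, 26.5, 60 and 31.5 (log2 change 3.00, SE 0.34, adjusted p = 0.00036). In TGF beta and BMP signalling the lasting calls were falls: the BMP receptor *Bmpr1b* went from 16.5, 17.7 and 19 to 4.44, 6.97, 5.7 and 4.78 (log2 change -1.63, SE 0.17, adjusted p = 0.00026) and the ligand *Gdf10* from 10.2, 9.69 and 9.36 to 3.62, 4.12, 5.88 and 3.62 (log2 change -1.12, adjusted p = 0.0014). The 3 rises of this list were 0 without saline WT 1 or 2 or OVA WT 1 and 1 without saline WT 3, OVA WT 4, saline KO 3 or OVA KO 2, and its median, 0.12, turned to -0.10 at equal column totals.

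Heart muscle genes fell as a block. Of 22 genes 21 were lower (median -2.88), and *Nppa* (48.3, 10.8 and 34.3 and 0.674, 14.3, 3.79 and 1.58) did not pass. *Myh6*, the atrial myosin heavy chain, was at 284, 412 and 438 in saline WT and 7.06, 37.5, 21.8 and 36.1 in OVA WT (log2 change -4.08, SE 0.60, adjusted p = 0.001). *Actc1*, cardiac actin, went from 119, 158 and 209.5 to 9.52, 26.1, 22.4 and 24 (log2 change -3.01, adjusted p = 0.00063), the oxygen store *Mb* (myoglobin) from 54.6, 52.6 and 76.5 to 0.892, 8.63, 4.98 and 7.0 (log2 change -3.67, adjusted p = 0.0018) and the Z-disc protein *Actn2* from 20.6, 24.8 and 28.7 to 1.09, 5.11, 1.62 and 2.86 (log2 change -3.15, adjusted p = 0.00097). Summed over the list, values were 1037, 1337 and 1703 in saline WT and 85.4, 231, 166 and 206 in OVA WT. Saline *Mcemp1*-/- lungs, which had no OVA either, summed to 453, 876 and 770. Among the OVA lungs OVA WT 1 was the lowest in each of these genes. The part that the amount of heart muscle in the tissue has in other falls was not tested. Other lists held genes of heart muscle: among 13 ion channel genes 5 fell, including the atrial potassium channel subunit *Kcnj5* (4.7, 5.7 and 5.37 and 0.372, 0.929, 0.592 and 0.662, log2 change -2.36, SE 0.32, adjusted p = 0.00063). In the nuclear respiratory chain list the 3 falls, 1 without saline WT 3, were of the muscle isoforms *Cox6a2*, *Cox7a1* and *Cox8b*, and 0 of the other 12 genes passed. Fatty acid oxidation had 7 of 18 lower (2 without saline WT 1 or 3, 3 without saline WT 2, 4 without OVA WT 1), led by the heart fatty acid-binding protein *Fabp3* (log2 change -2.06).

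Fat genes fell with more scatter. The adipocyte list had 7 of 13 lower (median -1.97), 1 without saline WT 1 or saline WT 2, 3 without OVA WT 1 or OVA WT 3 and 4 without saline WT 3, OVA WT 4 or any saline KO library. Its sums were 399, 327 and 254 in saline WT and 126.5 to 172 in OVA WT. The lipid droplet protein *Plin4* fell in each, from 23.7, 19.5 and 15.9 to 0.929, 4.73, 3.83 and 3.08 (log2 change -2.61, adjusted p = 0.0067). Adipsin (*Cfd*) was at 63.6, 49.5 and 27.8 and 0.372, 7.12, 0.615 and 2.2, and its call did not hold without saline WT 1 or 2 or without OVA WT 1.

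The promoters of *Actc1* and *Myl7*, an atrial myosin light chain, are shown because this list fell as a block and the CArG box, the site of serum response factor, stands near the start of both, in capitals.
Actc1 (chr2:114052826-114053125, minus strand): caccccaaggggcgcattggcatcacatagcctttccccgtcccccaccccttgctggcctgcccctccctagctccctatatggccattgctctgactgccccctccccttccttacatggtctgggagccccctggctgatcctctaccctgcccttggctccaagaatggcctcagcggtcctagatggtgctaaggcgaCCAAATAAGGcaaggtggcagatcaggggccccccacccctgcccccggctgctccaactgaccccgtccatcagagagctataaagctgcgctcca
Myl7 (chr11:5898733-5899032, minus strand): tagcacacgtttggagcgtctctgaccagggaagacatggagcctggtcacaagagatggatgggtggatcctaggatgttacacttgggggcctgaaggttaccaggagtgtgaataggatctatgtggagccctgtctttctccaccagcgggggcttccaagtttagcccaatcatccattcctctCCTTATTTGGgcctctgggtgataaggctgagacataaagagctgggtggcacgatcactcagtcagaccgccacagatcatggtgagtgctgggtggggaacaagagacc
The box begins 47 bases before the start in *Actc1* and 61 in *Myl7*. It was found in 4 of 20 promoters of the heart list, in 1.33% of all 13845, in 1.44% of those of falling genes and in 0.6% of those of rising genes. This motif was chosen after the values were seen.

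Among cell states, transcripts encoded by the mitochondrial genome were raised. Of 13 such genes 12 were higher (median 0.93), 0 without saline WT 2, 2 without saline WT 1, 4 without OVA WT 1 and 7 without OVA WT 4. *mt-Nd1*, a complex I subunit, was at 9296, 9307 and 12114 and 25054, 19398, 20683 and 23539.8, and the groups did not overlap. Its call was lost without saline WT 2 and under quantile normalisation. The nuclear genes of the same chain did not rise (0 of 15). Cell cycle genes had 8 of 25 higher, of which 5 were of the Mcm helicase and 1 remained without saline WT 2, 2 without OVA WT 1 or saline WT 3 and 4 or 5 without OVA WT 2, saline WT 1, OVA KO 2 or any saline KO library. The proliferation marker *Mki67* was at 13.9, 10.2 and 12.1 and 18.8, 29.7, 13.9 and 15.3 (log2 change 0.61, adjusted p = 0.13). Heat shock gene *Hspa1b* fell from 35.2, 22.3 and 57.1 to 8.68, 13.7, 10.3 and 15.9 (log2 change -1.55, adjusted p = 0.0053). It encodes a chaperone induced by many kinds of stress. Clock genes had 1 of 17 called, *Usp2* (20.5, 23.1 and 21.2 and 9.59, 13.2, 10.2 and 11.2, log2 change -0.95, adjusted p = 0.0069). Immediate early and glucocorticoid response genes had 1 of 16 and 1 of 10 called, and both calls were lost without OVA WT 1, OVA WT 4, saline WT 2 or saline WT 3. The immediate early call was also lost without OVA WT 2, and the glucocorticoid call without saline WT 1. Of 10 reference genes 1 rose and 1 fell, with neither call kept without saline WT 1 or saline WT 2, and *Gapdh* was at 37.4, 38 and 49.7 and 42.3, 47.7, 41.3 and 42.8.

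Cell state and other tissue lists not yet given were mixed. The unfolded protein response, which expands the folding capacity of secretory cells, had 6 of 14 genes higher (median 0.39), but 1 without saline WT 1 or 2, 2 without OVA WT 3 and 3 without OVA WT 1, OVA WT 2, saline WT 3 or saline KO 2. Ribosomal proteins had 4 of 20 higher (median 0.21, and -0.02 at equal column totals), 0 without saline WT 2, 1 without saline WT 1 and 2 without OVA WT 1, 2 or 3, OVA KO 2 or saline KO 3. Wnt signalling had 2 of 18 lower, 0 without saline WT 1 or 3 and 1 without OVA WT 1. Mesothelial, erythroid, platelet, thymic and squamous epithelial genes had 0 of 9, 7, 7, 1 and 4 called by limma. At an unadjusted p under 0.05, 1 mesothelial and 1 squamous gene were lower and 2 platelet genes higher. Cartilage had 1 of 5 genes lower, 0 without saline WT 1 or 2 or OVA WT 1, and summed to 51.1 to 72.5 after saline and to 17.5, 67.7, 17.8 and 34.9 in OVA WT 1 to 4. Schwann cell and nerve genes had 1 of 10 lower, 0 without saline WT 2 and 2 without OVA WT 2. Glycolysis and hypoxia had 1 of 12 lower, 0 without any wild-type library but OVA WT 2 and without saline KO 2 or OVA KO 2. Receptors of airway and vascular tone had 1 of 16 lower, 0 without saline WT 2, and lymphoid chemokines 1 of 9 higher, 2 without OVA WT 2. The fall of 1 of 4 skeletal muscle genes was in *Atp2a1*, the calcium pump of fast fibres, from 1.29, 1.67 and 3.06 to 0.348, 0.599, 0.444 and 0.648 (log2 change -1.26, adjusted p = 0.004).

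Most of the 1701 falling genes were in no list, and the lists account for 102 of them. Protein-coding genes made up 1496, and 1173 fell by less than 2-fold, 436 by 2- to 4-fold and 92 by more. Genes with a mean of at least 100 in saline WT numbered 99, and 414 had a mean under 1 in OVA WT. The falling genes were longer than the rising ones, with a median gene length of 21281 bases against 12968 (14079 over all genes) and a median exon length of 3541 against 2922 bases (3220 over all genes). Several had the lowest p-values of the comparison without being in a list. *Cep70*, a centrosomal protein, was at 34.5, 34.2 and 34.8 and 15.9, 15.2, 15.9 and 15.1 (log2 change -1.13, SE 0.11, adjusted p = 0.00021). The ectonucleotidase *Entpd2* was at 6.23, 7.01 and 6.47 and 2.09, 2.89, 2.64 and 2.41 (log2 change -1.24, adjusted p = 0.00026), the phosphodiesterase *Gdpd2* at 23.5, 31.4 and 28 and 1.7, 4.02, 3.67 and 2.55 (log2 change -3.06, SE 0.32, adjusted p = 0.00026), and *Scgb1c1*, a minor secretoglobin, at 9.32, 10.1 and 14.8 and 1.88, 1.94, 2.6 and 2.11 (log2 change -2.16, adjusted p = 0.00017). Within each group these genes varied by less than 3 times, and the groups were far apart. Among the rising genes outside the lists, *AA467197* was at 2.59, 1.48 and 2.32 and 17.8, 21, 19.1 and 18.3 (log2 change 2.92, SE 0.28, adjusted p = 0.00026) and *Gatm*, an enzyme of creatine synthesis, at 4.51, 3.21 and 4.3 and 21.2, 32, 23.3 and 15.7 (log2 change 2.35, adjusted p = 0.00036). The survival gene *Bcl2a1b* rose from 16.7, 13.5 and 11.4 to 41.6, 49.4, 40.7 and 32.9 (log2 change 1.54, SE 0.16, adjusted p = 0.00026), and the orphan receptor *Gpr176* from 0.665, 0.616 and 0.585 to 1.53, 1.73, 1.71 and 1.75 (log2 change 0.96, adjusted p = 0.00034).

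**Figure D4:**
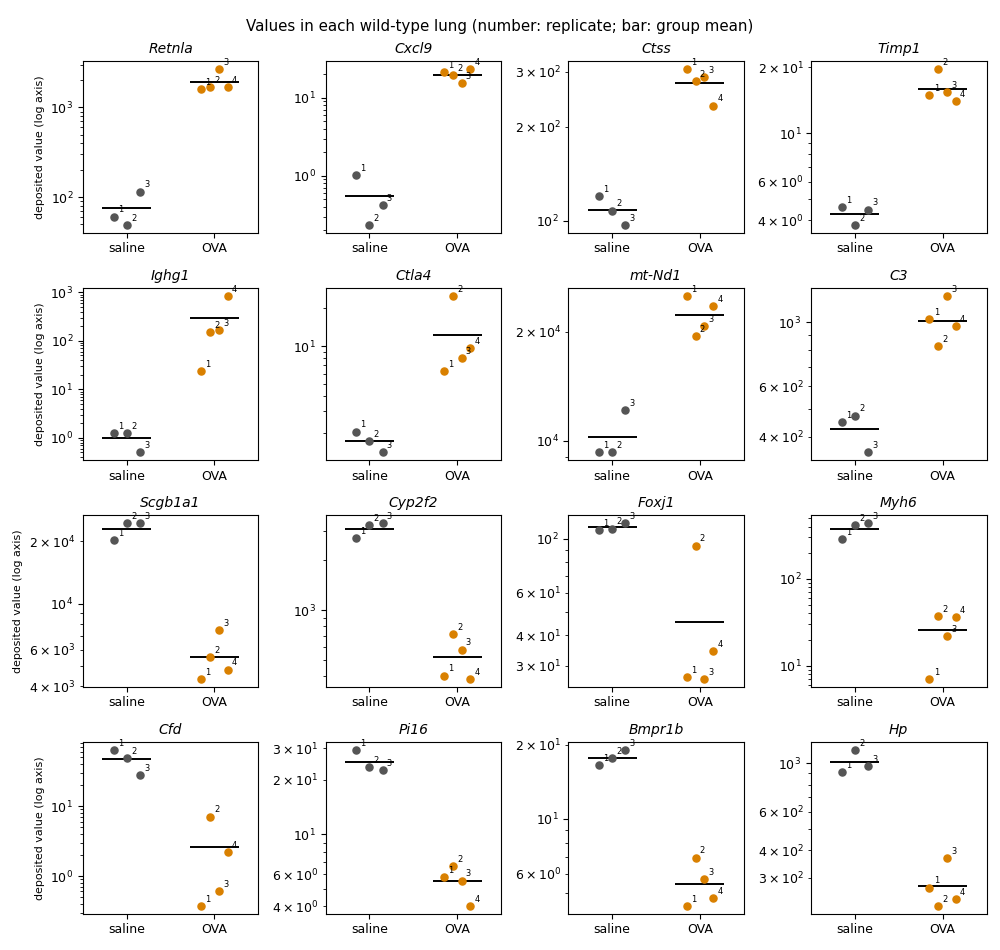
Deposited values (log axis) of 16 genes in each saline (grey) and OVA (orange) wild-type lung, numbered by replicate, with the group mean as a bar. The 2 groups are apart in all 16 panels, Ctla4 is highest and Foxj1 least lowered in OVA WT 2, and Ighg1 spreads most among the OVA lungs.

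The *Mcemp1*-/- lungs share no library with this comparison, but both were tested in the same fit with a shared estimate of the spread. Calls in 1 genotype therefore depend on libraries of the other. In *Mcemp1*-/- lungs the same OVA schedule gave 48 genes higher (0.21%) and 38 lower (0.166%). These counts moved with the libraries used. They were 11 and 0 without saline KO 1, 12 and 3 without saline KO 3, 92 and 128 without OVA KO 4, and 80 and 87 without OVA WT 2. Of the 995 genes that rose in wild type 928 had a positive change there, with a median of 0.25, and of the 1701 that fell 1639 had a negative one, with a median of -0.36. Over all genes the sign was the same in 66.6%. The 995 and 1701 genes were picked by their change in wild type, and that choice alone makes smaller medians in knockout likely. The lists were also chosen with earlier results of these data known. By list, medians in knockout were 0.41 for interferon gamma-induced genes (1.10 in wild type), 0.66 for alternatively activated macrophages (1.61), -1.04 for club cells (-1.96) and -0.88 for heart muscle (-2.88). For immunoglobulin constant regions they were nearly equal, at 2.00 and 2.01. The heart muscle medians start from unlike levels, because the list summed to 453, 876 and 770 in saline KO and to 1037, 1337 and 1703 in saline WT. The difference between the 2 responses, tested as an interaction, passed for 1 gene (0.00438%). This was *Gm16867*, a predicted gene on chromosome 14, which fell in wild type (3.59, 3.29 and 4.61 to 1.52, 2.66, 1.76 and 1.83), a call lost without any saline WT library or without OVA WT 1, 3 or 4, and was higher in knockout (0.051, 0.058 and 0.135 to 1.45, 1.24, 1.27 and 3.05), a difference of 2.73 (SE 0.33, adjusted p = 0.025). Without OVA WT 2 or OVA KO 2, 3 or 4 at least 1 gene passed in that direction, and without any of the other 10 libraries 0 did. The smaller medians in knockout were not tested.

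**Figure D5:**
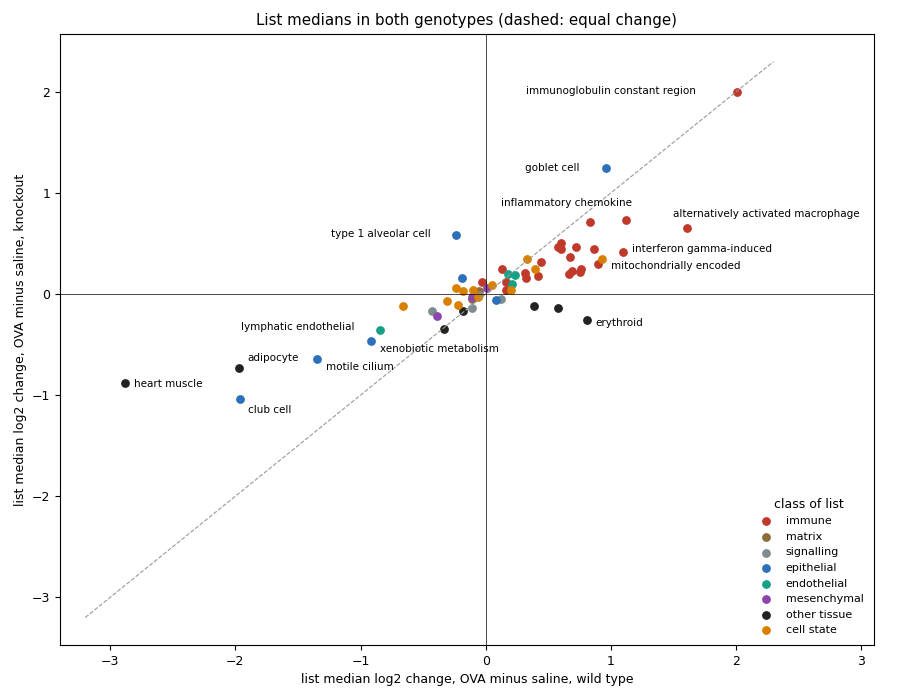
Median log2 change of each list with at least 5 measured genes in wild type (x axis) and knockout (y axis), coloured by the class of the list, with equal change as a dashed line. Most lists away from 0 lie nearer to 0 on the y axis than on the x axis, and the immunoglobulin list lies on the line.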

How the data were processed

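RNA sequencing of lung was deposited as 1 table with a row per gene and a column per library, 14 libraries in 4 groups. The deposited values are a signal: counts that the authors normalized by a method not given in the sources used here. Partek, STAR and mm10 are named in the submitters' processing notes, without versions. The values are not scaled by gene length, so levels were compared between libraries and not between genes. The lowest value of a column was taken as 1 read, which gave the estimated depth. Of the identifiers 24165 (99.6%) were found in GENCODE M21, but only 2.19% of the starts in the table equal those of GRCm38, so the coordinates in the table were not used. All 14 value columns map to a sample.

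Values were tested as log2(value + 0.5) with limma 3.58.1 in R 4.3.3 (trend and robust moderation) in genes at 0.2 ppm of the column total or more in at least 3 libraries. Fold changes are on that scale, which understates the change of low genes. Adjusted p-values are Benjamini-Hochberg values from limma over all 22828 genes. Groups came from the labels, and the column prefix CO was read as the saline control.

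The members and the gene lists were chosen with earlier results of these data known. Genes were named by rule: the 15 largest called changes each way without overlap of the groups, the 12 largest each way in no list, the first 3 and up to 4 most changed called genes of each list with the called gene most against it, and the 12 smallest p-values and 12 highest means each way. This took 360 genes. Predicted genes and receptor segments were counted but not named, and not every gene taken by the rule is reported here. A further 21 were chosen after their values were seen: *Actc1*, *Agr2*, *Aldh1a3*, *Ccl5*, *Ccl9*, *Ccl20*, *Ccl22*, *Cd163*, *Cxcl5*, *Cxcl13*, *Fcgr2b*, *Gbp2*, *Gm16867*, *Ighe*, *Il6*, *Irf8*, *Kit*, *Mcemp1*, *Mrc1*, *Nppa* and *Pdcd1lg2*. Counts by gene symbol were also made after the values were seen. They covered 322 families with at least 8 tested members, and the few reported were picked from these. In simulated data for this comparison with 200 changed genes among 22828, 95% of 2-fold and 94% of 4-fold changes were recovered, with 10 false calls. The changed genes were drawn only from those above a minimum mean level. The simulated noise was independent between libraries, and no library stood apart as OVA WT 2 did. The recovered shares therefore do not cover low genes or an outlying library. Other scalings, pseudocounts and filters, moderation settings, the wild-type libraries alone, a replicate block and leaving out each library were tried.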

Additional observations from a re-analysis of the deposited data

Results flagged for a closer look

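Of 222 values tested in the 4 OVA wild-type lungs, 10 had a library far from the others. This is no more than the 1 in 20 that chance gives, so a single flag may be chance. The values are not independent, because lists and genes of the same lists were tested together. The measure is the gap to the nearest library as a share of the range, judged by Dixon's test. OVA WT 2 was highest in the mean log2 value of the T cell list (0.973), the lymphoid chemokine list (0.932), the inflammatory chemokine list (0.900) and the skeletal muscle list (0.844), and in *Cxcl13* (0.930) and *Il13ra2* (0.872). OVA WT 1 was lowest in *Actc1* (0.849) and *Myl7* (0.859), OVA WT 3 highest in *Retnla* (0.915), and OVA WT 4 lowest in the neutrophil list (0.899). The predicted gene *Gm16867* differed between the OVA responses of the genotypes, by 2.73 on the log2 scale (knockout minus wild type).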

How the results depend on the processing

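Over 28 alternatives the counts of called genes moved more than the directions. At equal column totals 467 genes were higher and 4340 lower, with array weights 1902 and 2799, and with only the wild-type libraries 597 and 1202. Requiring at least 2-fold left 221 and 528. Leaving out 1 library gave 380 to 1103 higher and 779 to 2035 lower genes. The same number does not pair the lungs here (correlations of 0.171, -0.177 and -0.244), and a replicate block gave 1221 higher, 1667 lower and 0 genes that differed between the genotypes. That last number was also 0 with a pseudocount of 2, and 0 to 2 on leaving out 1 library. Of 243 named genes called, 148 were called under every alternative and 148 on leaving out any 1 library, and the number called was 161 (without saline WT 2) to 241. Under quantile normalisation, which forces equal distributions on all columns, *mt-Co1* went to 0.00 and *mt-Nd5* to -0.04. As *mt-Co1* was the highest gene in every library, that method gives it the same value in each and cannot show a change in it. List medians of ribosomal proteins, TGF beta signalling, aerocyte, arterial and venous cells, alveolar fibroblasts and reference genes turned below 0 at equal totals. The cause of the other shifts was not tested. Values of a few reads, such as those of *Il13*, limit what depth can show.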
